A study of Mus musculus with 4 samples.

Results

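Expression of 9 genes of the sarcomere, the contractile unit of striated muscle, was followed in C2C12 cells, a mouse line of muscle precursor cells whose cells fuse to form myotubes under differentiating conditions. The genes were Ttn, Neb, Myom2, Mybpc2, Mybph, Myl1, Tnni1, Myoz2 and Smpx. They were chosen by symbol from the authors' deposited table of transcript clusters that differed between the groups by 1.5-fold or more and passed the authors' own p-value cutoff, so the contrast between the groups had already selected them and every difference between the groups below is a description without a test. The 9 genes were represented by 10 of the 559 clusters in that table and of the 35557 clusters measured on each array, since Ttn had 2. The Bex10 group held 2 samples of confluent cells kept for 48 h in a basal medium for adipogenesis with 10 µM of the compound labelled Bex. The Ctrl group held 2 samples of the same cells kept for 48 h in that medium alone. From knowledge of the study, Bex stands for bexarotene, which activates retinoid X receptors (RXRs), and the question behind the comparison was whether it turns muscle cells towards brown fat. Both groups came from a single cell line in a fat-forming medium, and the labels do not say how many of the cells had fused into myotubes. RNA from each sample was hybridised to an Affymetrix mouse gene array.

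In a sarcomere, thin filaments of actin slide past thick filaments of myosin. Thin filaments are anchored in the Z-disc and carry the troponin complex, which makes contraction depend on calcium, whereas thick filaments are held in register at the M-band. Giant proteins run along both and set their order and length, and myoblasts switch on most of these genes together when they leave the cell cycle and differentiate. MEF2 factors and the MyoD family, which binds the E-box, drive much of that programme.

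All 9 genes were higher in Bex10 than in Ctrl samples, by 1.66-fold (Mybph) to 3.39-fold (Smpx), with a median log2 difference of 0.98, against a median of -0.012 over all 35557 clusters. The Bex10 and Ctrl values of each of the 9 genes did not overlap. Among all clusters 20.6% had both Bex10 values above both Ctrl values, and because selection by the authors' cutoffs largely forces this pattern, nothing is read from the count of 9. In bulk RNA, a larger share of muscle-like cells and more of these transcripts per cell cannot be told apart. Values are RMA values on the log2 scale, and a difference of 1 on that scale is a doubling. Probes differ in how well they bind, so levels are compared between samples and not between genes.

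**Figure D1:**
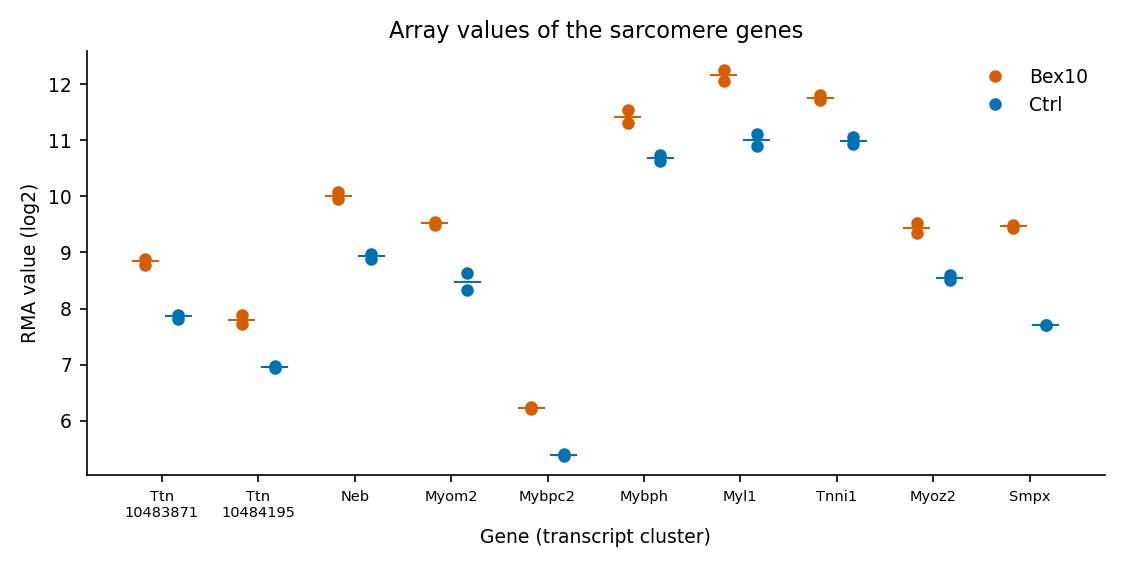
RMA values (log2, vertical axis) of the 10 transcript clusters of the 9 genes, with Bex10 arrays in orange left of Ctrl arrays in blue and a short line at each group's mean (n = 2). In each of the 10 clusters both Bex10 points lie above both Ctrl points, and the gap is widest for Smpx.

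The promoters of 7 of the 9 genes were present in a RefSeq promoter table of build GRCm38.p6, with 8 entries in all because Tnni1 had 2. Each entry runs from 250 bases before the gene's start to 50 bases after it. The 3 promoters below are shown because each holds a match to a loose form of the MEF2 motif, written in capitals. That form is CTA, any 4 bases, then TAG, which reads alike on both strands. They belong to Ttn (chr2:76982498-76982797, minus strand), Myoz2 (chr3:123034938-123035237, minus strand) and Smpx (chrX:157698723-157699022, plus strand), and all are written 5′ to 3′ along the gene.
Ttn: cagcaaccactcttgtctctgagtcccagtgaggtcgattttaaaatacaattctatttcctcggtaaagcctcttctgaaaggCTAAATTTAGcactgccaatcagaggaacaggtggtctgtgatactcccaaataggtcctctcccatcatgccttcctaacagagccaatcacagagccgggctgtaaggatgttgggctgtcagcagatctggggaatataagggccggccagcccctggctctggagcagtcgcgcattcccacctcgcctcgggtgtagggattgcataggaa
Myoz2: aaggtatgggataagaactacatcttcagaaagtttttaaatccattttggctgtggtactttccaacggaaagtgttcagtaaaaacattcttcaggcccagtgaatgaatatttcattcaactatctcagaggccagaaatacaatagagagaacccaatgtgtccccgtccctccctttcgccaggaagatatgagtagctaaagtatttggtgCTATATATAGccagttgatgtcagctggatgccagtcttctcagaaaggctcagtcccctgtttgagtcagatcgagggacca
Smpx: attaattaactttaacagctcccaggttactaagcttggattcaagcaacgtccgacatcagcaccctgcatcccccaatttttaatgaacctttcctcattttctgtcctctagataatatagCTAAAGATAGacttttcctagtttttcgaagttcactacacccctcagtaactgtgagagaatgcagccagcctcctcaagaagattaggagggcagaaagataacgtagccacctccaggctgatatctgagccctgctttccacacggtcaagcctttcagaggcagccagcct

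The match was CTAAATTTAG in Ttn, starting 166 bases before the start, CTATATATAG in Myoz2, starting 33 bases before it, and CTAAAGATAG in Smpx, starting 126 bases before it. The middle 4 bases were all A or T in Ttn and Myoz2, while those of Smpx held a G. A match to the loose form was found in 3.69% of the 32851 promoters in the table. The promoters of Mybpc2, Mybph, Myl1 and Tnni1 had none within the same window. The share of promoters with only A or T in the middle was not counted. E-boxes (CANNTG, which also reads alike on both strands) occurred in 72.3% of all promoters and in 6 of the 7 genes, Smpx being without one, and no E-box overlapped a MEF2 match. Tnni1 held the most, 4 in the entry at chr1:135799171-135799470 on the plus strand, which is shown for that reason with its E-boxes in capitals.
Tnni1: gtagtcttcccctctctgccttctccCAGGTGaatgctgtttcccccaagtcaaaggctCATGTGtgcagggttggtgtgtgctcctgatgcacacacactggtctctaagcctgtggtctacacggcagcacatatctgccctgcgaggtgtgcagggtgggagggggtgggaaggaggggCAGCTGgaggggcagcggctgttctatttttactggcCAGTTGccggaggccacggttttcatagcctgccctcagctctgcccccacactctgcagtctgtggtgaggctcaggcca

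The second Tnni1 entry overlaps the first and shares 2 of these E-boxes. Neither the CArG box of serum response factor (1.63% of all promoters) nor a direct repeat of AGGTCA with 1 base between the copies, the arrangement that RXR dimers with PPARs are known to bind (0.0396%), was found on either strand of the 8 entries. Motifs that rare would be absent from most sets of 8 entries, so nothing is read from their absence. A single AGGTCA half-site, present in 16.3% of all promoters, was found in Mybph alone, on the opposite strand and starting 92 bases before the start. These matches describe letters in a short window, and no binding was measured.

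The giant proteins that lay out the sarcomere differed by about the same amount. Ttn encodes titin, the elastic protein that spans from the Z-disc to the M-band. Its brighter cluster (10483871) read 8.89 and 8.78 in Bex10 samples, against 7.89 and 7.82 in Ctrl samples. Both Bex10 samples stood clear of both Ctrl samples, and the groups did not overlap. The log2 difference was 0.98 ± 0.09 (limma's SE, as for each ± on a difference; n = 2 per group), or 1.97-fold. The second Ttn cluster (10484195) read 7.73 and 7.88 in Bex10 samples and 6.98 and 6.94 in Ctrl samples, a 1.79-fold difference (0.84 ± 0.09). Both clusters of the gene therefore pointed the same way, although both had been selected.

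Neb encodes nebulin, which runs along the thin filament and stabilises its length. It read 10.07 and 9.95 in Bex10 samples, against 8.97 and 8.89 in Ctrl samples. The groups did not overlap, which the selection largely forces, with a log2 difference of 1.08 ± 0.09, or 2.12-fold. Myom2 encodes myomesin 2, which links thick filaments at the M-band. It read 9.55 and 9.49 in Bex10 samples and 8.63 and 8.33 in Ctrl samples. The groups did not overlap, but the Ctrl samples were 0.30 apart on the log2 scale, the widest spread within a group among the 9 genes. The difference was 1.04 ± 0.13, or 2.06-fold.

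Among proteins of the thick filament, Mybpc2 encodes the fast isoform of myosin-binding protein C, which crosses the thick filament and tunes its interaction with actin. Its values were 6.22 and 6.24 in Bex10 samples and 5.41 and 5.38 in Ctrl samples. The samples of each group nearly coincided, and the 1.78-fold difference (0.83 ± 0.08) separated the groups fully, which the selection largely forces. Its Ctrl values lay below the median over all clusters on those arrays, 5.78 and 5.80. Mybph, which encodes the related myosin-binding protein H, read 11.54 and 11.30 in Bex10 samples and 10.74 and 10.63 in Ctrl samples. It had the smallest difference of the 9, 0.74 ± 0.12 or 1.66-fold, and the largest gap between Bex10 samples, 0.25. The groups still did not overlap.

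Myl1 encodes the essential light chain of fast skeletal myosin, which stabilises the lever arm of the motor. It read 12.25 and 12.06 in Bex10 samples, against 11.11 and 10.90 in Ctrl samples. The groups did not overlap, and the difference of 1.15 ± 0.13 (2.23-fold) was second only to that of Smpx among the 9 genes. Tnni1 encodes the slow skeletal isoform of troponin I, the subunit that inhibits contraction at low calcium. It read 11.80 and 11.72 in Bex10 samples and 11.05 and 10.93 in Ctrl samples, again without overlap, a difference of 0.77 ± 0.09 (1.70-fold). Genes typical of fast fibres (Myl1, Mybpc2) and of slow fibres (Tnni1, Myoz2) were all higher in Bex10 samples.

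At the Z-disc and the cell edge, Myoz2 encodes myozenin 2 (calsarcin-1), which binds alpha-actinin and the phosphatase calcineurin. It read 9.52 and 9.35 in Bex10 samples and 8.60 and 8.51 in Ctrl samples. The groups did not overlap, with a difference of 0.88 ± 0.10, or 1.84-fold. Smpx encodes a small X-linked muscle protein found at costameres, where the sarcomere is tied to the cell membrane. It read 9.44 and 9.49 in Bex10 samples, against 7.70 and 7.71 in Ctrl samples. Its samples agreed within 0.05 in either group and the groups lay 1.73 apart at their nearest, the widest gap of the 9 genes. The difference of 1.76 ± 0.08 was 3.39-fold, and it ranked 63rd of 35557 clusters. The other 8 genes lay between 1.66-fold and 2.23-fold and ranked from 267th to 855th. These ranks include 6669 clusters with IDs lower than any in the authors' table, possibly array controls. With those clusters 1288 were 1.5-fold or more higher, and without them 575, so the ranks would be nearer the top without them.

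**Figure D2:**
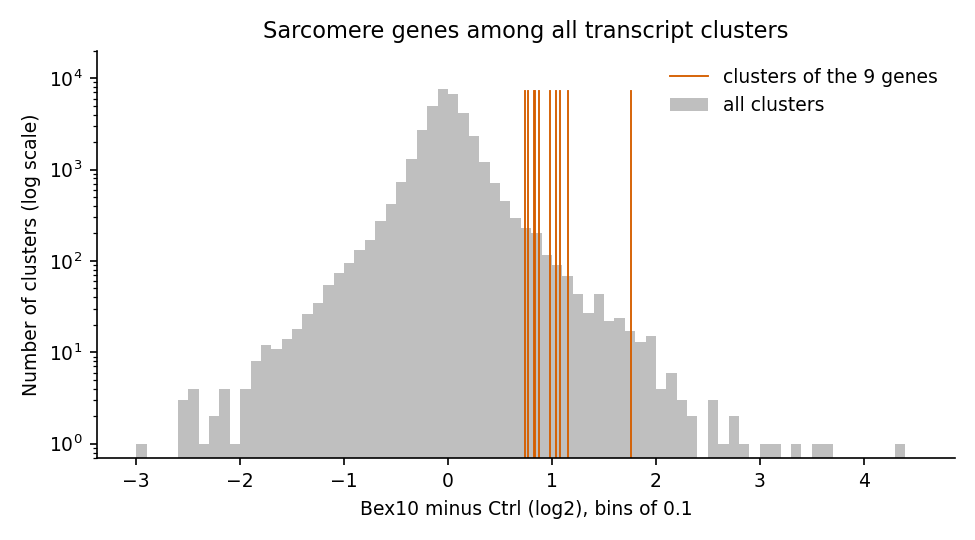
Number of transcript clusters (log scale, grey) by the difference Bex10 minus Ctrl (log2, bins of 0.1) over all 35557 clusters, with the 10 clusters of the 9 genes as orange lines. Most clusters lie near 0, 9 of the orange lines lie between 0.74 and 1.15, and Smpx stands apart at 1.76.

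In the value table all 9 genes differed by 1.5-fold or more, as did 3.62% of all clusters in that direction, and 9 of 9 did so in both same-numbered pairs of samples, as did 1.71% of all clusters. When 6669 clusters with IDs lower than any in the authors' table, possibly array controls, were left out, these background shares were 1.99% and 1.23%. The selection fixes these counts for the 9 genes, and they are not read as support. The limma fit over all clusters called 0 of 35557 (0%) at an adjusted p under 0.05, with 4189 at an unadjusted p under 0.05, so 0 of the 9 genes were called. That count depended on the settings. It was 297 of 28888 without the clusters of low ID, 427 of 35557 with a variance trend and 105 of 24890 without the lowest 30% of clusters. Whether any of the 9 genes was among those calls was not examined. In the authors' deposited table the FDR p-values of the 10 clusters ran from 0.252832 for Smpx to 0.416499 for Mybph. The smallest fold in the authors' deposited table over all genes was 1.51, and the nearest of the 9 genes to that limit was Mybph at 1.70 there. Clusters outside that table carry no gene name in the files used here, so sarcomere genes just under the limit were not analysed here.

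The differences were alike in both same-numbered pairs. The gap between pairs reflects differences between samples of the same group, and the authors' p-value cutoff favours genes where these are small. The likeness is therefore not read as support. For Smpx the Bex10 sample exceeded the Ctrl sample by 1.75 in pair 1 and 1.78 in pair 2, and for Myl1 by 1.14 and 1.16. Neb (1.10 and 1.07), Ttn (1.00 and 0.96 in the brighter cluster), Mybpc2 (0.81 and 0.86) and Tnni1 (0.74 and 0.79) also repeated within 0.05. The pairs were farthest apart for Myom2, at 0.92 and 1.16, and for Mybph, at 0.81 and 0.66. The median gap between pairs over the 9 genes was 0.04. The labels speak of 2 batches of cells without saying which samples came from which, so the shared numbers may or may not mark a batch.

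**Figure D3:**
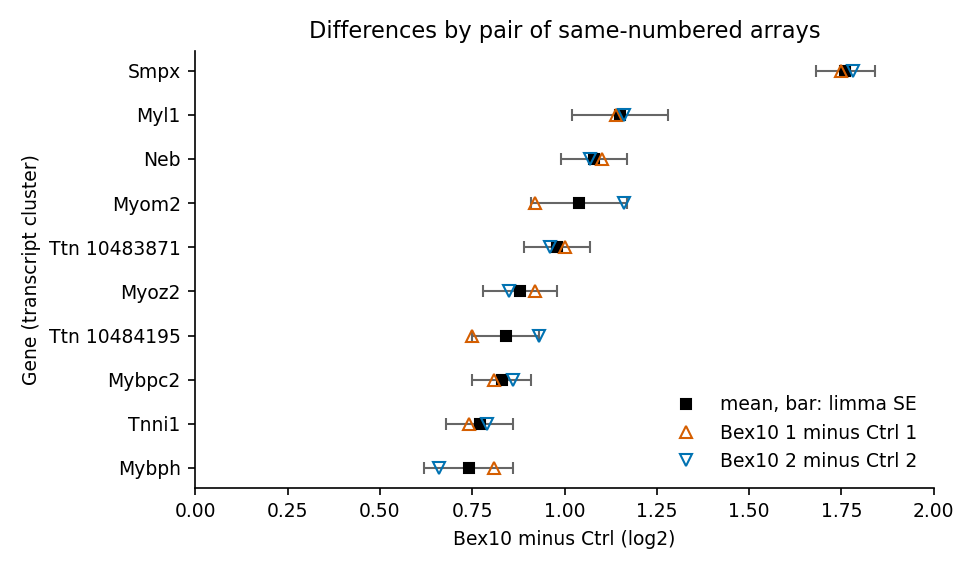
Difference Bex10 minus Ctrl (log2) for each of the 10 clusters, as the mean with limma's SE (black squares, bars) and for each pair of same-numbered samples (triangles). The 2 pairs differ by 0.24 at most among the 9 main clusters, for Myom2, and Mybph has the smallest mean at 0.74.

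The selection did not use the direction of differences between samples of the same group, although its p-value cutoff favours genes where these are small. Bex10 sample 2 lay below Bex10 sample 1 for 7 of the 9 genes, with a median difference of -0.11, while 49.0% of all clusters had that direction and their median was 0.004. Ctrl sample 2 lay below Ctrl sample 1 for 8 of the 9, with a median of -0.09, while 48.2% of all clusters had that direction and their median was 0.007. Smpx was above in sample 2 in both groups, by 0.05 in Bex10 and by 0.02 in Ctrl, and Mybpc2 was above by 0.02 in Bex10 only. With 1 sample on each side these differences have no test. All lay inside the range that held the middle 90% of clusters, -0.48 to 0.56 in Bex10 and -0.43 to 0.49 in Ctrl. As a mean over the 9 genes the samples stood at 9.92 and 9.82 in Bex10 and at 8.90 and 8.79 in Ctrl.

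**Figure D4:**
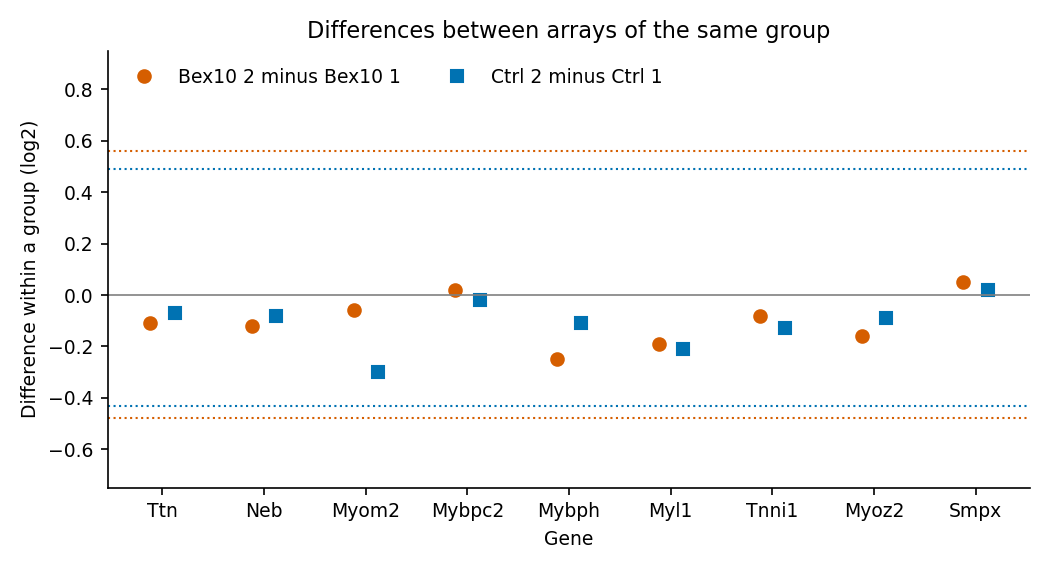
Difference between the 2 arrays of a group (sample 2 minus sample 1, log2) for each of the 9 genes, with Bex10 as orange circles and Ctrl as blue squares. Dotted lines mark the range from -0.48 to 0.56 (Bex10, orange) and from -0.43 to 0.49 (Ctrl, blue) that held the middle 90% of all clusters, and most points lie a little below 0.

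The wider sarcomere was described through lists of 83 genes by place in the sarcomere, which include the 9. The authors' deposited table named 20 of them, the 9 and 11 others. All 11 others were higher in Bex10 samples, against 62.1% higher among all 559 clusters of that table. The lists were chosen with earlier results of these data known, so this count is not read as support. The remaining 63 listed genes were not analysed here. The 11 others had a median log2 difference of 0.84 and a range from 0.63 to 2.06. The median was 0.87 over the 347 clusters of that table that were higher. At the Z-disc, 3 of 20 listed genes were named, the third being Csrp3, the muscle LIM protein that takes part in stretch sensing, which averaged 9.81 ± 0.04 in Bex10 and 9.18 ± 0.15 in Ctrl samples (SD, n = 2 each; 1.55-fold). Among M-band and titin-linked genes, 5 of 12 were named. Ankrd2, an ankyrin-repeat protein that binds titin in the I-band, averaged 10.49 ± 0.01 in Bex10 and 8.57 ± 0.08 in Ctrl samples, a 3.77-fold difference and the only titin-linked one larger than that of Smpx. Its relatives Ankrd23 (1.79-fold) and Ankrd1 (1.71-fold) were near Ttn itself.

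Of 19 listed thin filament genes 3 were named, and the third was Lmod2, a leiomodin that helps actin filaments grow, at 9.20 ± 0.10 in Bex10 and 8.48 ± 0.07 in Ctrl samples (1.64-fold). Of 22 listed thick filament genes 8 were named. The largest differences were those of the myosin heavy chains Myh8 (4.18-fold) and Myh1 (4.01-fold), which belong to a family of very similar genes, so that 1 probe can pick up several of them. The light chain Myl6b, at 9.27 ± 0.11 in Bex10 and 8.46 ± 0.07 in Ctrl samples (1.76-fold), was close to Mybpc2. Of 10 sarcomere assembly genes only Trim63, a ubiquitin ligase of the sarcomere, was named (1.73-fold). From the list of myogenic regulators and fusion genes 4 of 21 were named, among them the oxygen carrier Mb, 2.34-fold higher, and the satellite cell factor Pax7, 1.51-fold lower.

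**Figure D5:**
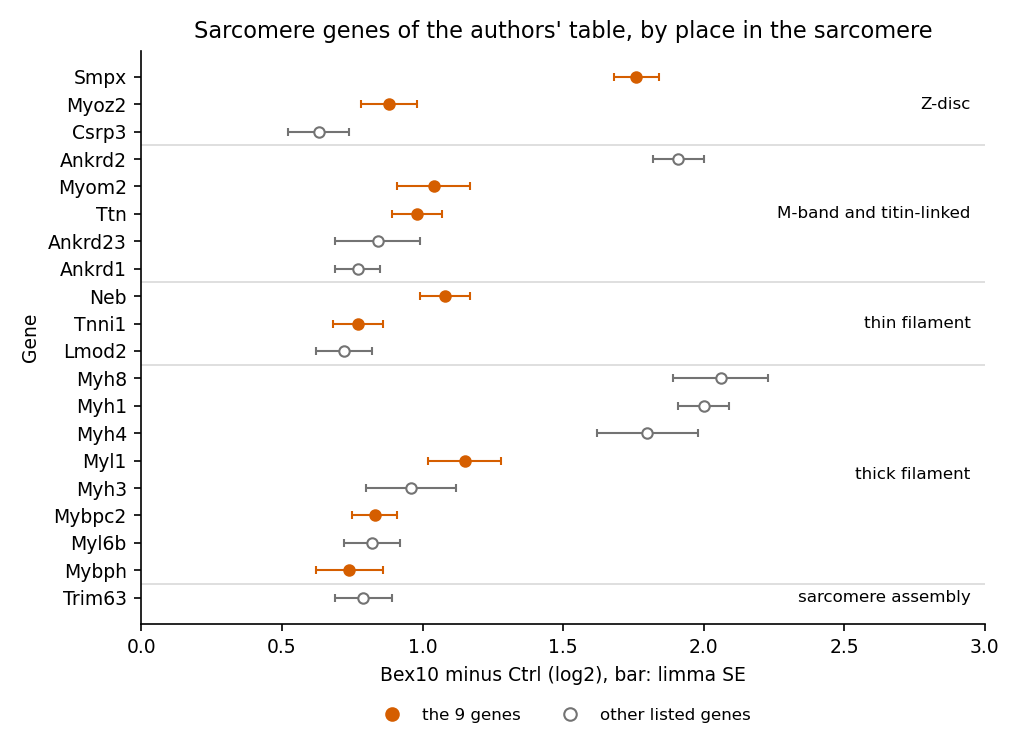
Difference Bex10 minus Ctrl (log2, with limma's SE as bars) for the 20 sarcomere-list genes that the authors' deposited table names, grouped by place in the sarcomere, with the 9 genes in orange and the 11 others in open grey circles. The lowest point is Csrp3 at 0.63, and Smpx, the highest of the 9 at 1.76, lies below Myh4, Ankrd2, Myh1 and Myh8.

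Among 527 other named genes of the authors' deposited table, the pattern nearest to the mean of the 9 was sought by the Euclidean distance between values centred on each gene over the 4 arrays. The nearest was Pi15, a peptidase inhibitor, at a distance of 0.034, and then Trdn, triadin of the calcium release complex of muscle, at 0.040. They were followed by Slit2, a guidance protein (0.063), and Col6a2, a collagen chain (0.074). The 9 genes themselves lay at 0.055 (Ttn) to 0.749 (Smpx) from their own mean, which they helped to set. Pi15 read 9.45 and 9.38 in Bex10 samples and 8.42 and 8.30 in Ctrl samples. Trdn read 7.30 and 7.23 in Bex10 samples and 6.31 and 6.22 in Ctrl samples. The 9 genes and the 527 others had all passed the same cutoffs on the contrast between the groups. A small distance therefore mostly means a log2 difference of similar size (1.05 for Pi15, 1.00 for Trdn, 1.06 for Slit2 and 1.05 for Col6a2). No shared regulation is read from it.

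Of the 18 protein-coding genes next to the 9 in the RefSeq gene table, 2 were named in the authors' deposited table. This was noticed after the values were seen. That table held 559 of all 35557 clusters, and the count of 2 was not tested. Ccdc141, next to Ttn, was 1.55-fold higher (9.50 and 9.37 in Bex10, against 8.86 and 8.74 in Ctrl samples). Kbtbd11, next to Myom2, was 1.89-fold higher (7.80 and 7.86 in Bex10, against 6.95 and 6.87 in Ctrl samples). The other 16 neighbours were not analysed here.

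Some markers of cell types and states were named in the authors' deposited table. Only clusters past its fold and p-value cutoffs are in it, so a difference was largely forced for each marker named. It held 559 of all 35557 clusters, and 62.1% of the 559 were higher in Bex10 samples. Listed markers that it did not name were not analysed here, so no list is read as higher or lower as a whole. Of 8 skeletal muscle markers 3 were named (Mb, Myh3 and Ckm), and all were higher, with a mean of 10.53 and 10.31 in Bex10 samples and 9.51 and 9.40 in Ctrl samples, so muscle transcripts were measured in both groups. Of 8 fat cell markers 3 were named (Fabp4, Plin1 and Pparg), and all were higher, with means of 8.81 and 9.04 in Bex10 and 6.99 and 6.79 in Ctrl samples. Of 6 smooth muscle markers 2 were named (Actg2 and Tagln), and both were lower, with means of 7.10 and 7.16 in Bex10 and 8.17 and 8.0 in Ctrl samples. The 2 named of 5 cycling-cell markers, Ccna2 and Mcm6, were lower too, at 8.19 and 8.13 in Bex10 and 8.94 and 8.93 in Ctrl samples. Of 7 fibroblast markers Fap was higher and Dcn lower, and of 8 cardiac markers 0 were named. The part of these shifts in the differences of the 9 genes was not tested. The median over all clusters was 5.77 and 5.76 on the Bex10 arrays and 5.78 and 5.80 on the Ctrl arrays.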

How the data were processed

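RNA from 4 samples of C2C12 cells was amplified and labelled with biotin, per the labels' protocols. The authors deposited log2 values made by RMA with core exons in Affymetrix Expression Console, per the labels. RMA includes quantile normalization, so a shift of most transcripts together would not show. The authors' deposited table from Transcriptome Analysis Console (named in the submitters' processing notes) holds, per the file headers, a log2 average for each group, a fold change with a sign (a score), and ANOVA and FDR p-values. Software versions, genome build and annotation release: not given in the sources used here.

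Arrays were grouped by title, and no pair of arrays shared more than 58 identical values. The labels mention 2 batches of cells but do not tie samples to them. Whether the samples of a group came from separate cultures is thus not known, and the spread between them may be technical. Gene names come from the authors' deposited table alone, in which 545 clusters had 1 symbol. For Ttn, the cluster with the higher mean is the main one. All 35557 clusters were fitted with limma 3.58.1 (lmFit, eBayes; R 4.3.3) as Bex10 minus Ctrl, with Benjamini-Hochberg adjustment. The 2 same-numbered pairs could not be shown to be paired (correlation of deviations 0.00786). The 9 genes, the gene lists and the rules for naming were chosen with earlier results of these data known. The rule named all 9, the 5 nearest in pattern (1 of which is not reported here) and up to 2 list members per list by size, and further list members, marker genes and neighbours were named after their values were seen. Alternatives were a replicate block, a variance trend, leaving out the lowest 30% of clusters or those of low ID, a median shift, quantile normalization, the authors' averages, each array left out, and the mean of a gene's clusters. Promoter sequences are RefSeq's (GRCm38.p6), read along the gene. Python 3.11.15 with pandas 2.3.3, numpy 2.4.6 and matplotlib 3.10.9 was used. The number of arrays, 4, limits the precision of every value.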

Additional observations from a re-analysis of the deposited data

How the results depend on the processing

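All 9 genes kept their direction under each alternative run. All 63 single-gene values lay between 0.61 and 1.79 on the log2 scale. Because the groups of these genes did not overlap, leaving out an array could not reverse a direction. A median shift moved no gene by more than 0.026. The kept direction is therefore not read as support. Of the 63 values, 60 moved by less than the spread between replicates. The others were Mybpc2 (0.86 after a median shift or quantile normalization) and Smpx (1.79 after a median shift), whose replicates were very close. Leaving out an array cannot move a value by more than this spread, and RMA values are already quantile normalized. The count of 60 was thus largely fixed in advance and is not read as support. For all 9 genes the groups did not overlap after either scaling, which the selection largely forces, so nothing is read from it. Before scaling, 20.6% of all clusters had both Bex10 values above both Ctrl values, and the share after scaling was not counted. The median difference of 0.98 was 1.01 after a median shift, 0.97 after quantile normalization, 1.00 with the authors' averages and 0.89 to 1.04 with each array left out in turn. It became 0.91 with the mean of both Ttn clusters, because Ttn is the middle gene. With the replicate number as a block it was 0.98, since a balanced block cannot move it. The count of 0 called clusters was also 0 with the replicate block, after both scalings and with any array left out, where a lone array was assumed to vary like the other group. It became 427 with a variance trend, 105 without the lowest 30% of clusters (means under 4.57) and 297 without clusters of low ID. All readings of the 9 genes lay above 4.57, but background was not measured.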
